A study of Mus musculus with 9 samples.

Results

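The 10 genes described here, Atf3, Sox11, Klf6, Klf7, Smad1, Gap43, Basp1, Sprr1a, Ecel1 and Gal, are genes that neurons are known to switch on or use when they regrow an axon. They were chosen by symbol from the 55401 genes of the deposited table, where each symbol has 1 row, and all 10 passed the filter on low counts. RNA came from spinal cord motoneurons of wild-type (WT) mice that had been marked with a fluorescent label named TRDA and drawn up by glass electrodes from slices of fresh cord, and libraries were made with Smart-seq2, which copies whole transcripts from very little RNA. The sham group (treatment given as None) has 3 libraries, the untrained group, which had a spinal cord injury, has 3, and the SBES group, which had the injury and synergistic bidirectional electrical stimulation, has 3. All were collected 4 weeks after the injury. The SBES libraries stand for different frequencies, with 10 Hz for SBES 1, 15 Hz for SBES 2 and 20 Hz for SBES 3, so frequency and library cannot be told apart. Per the labels each group came from 3 mice, but no library is tied to its mouse. Strain, age and how many neurons a library holds are not known here. Each p-value thus rests on library-to-library spread, which may be partly technical.

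As background, a peripheral neuron whose axon is cut starts a programme of gene expression that carries it from signalling to growth. Stress-responsive transcription factors such as ATF3 and growth-promoting ones such as SOX11, KLF6, KLF7 and SMAD1 come first, and growth cone proteins, secreted peptides and membrane proteins follow. Spinal motoneurons mount this programme strongly when their own axon in a peripheral nerve is cut. A spinal cord injury is a different lesion for them, because it takes away descending input and need not cut the motor axon.

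Libraries held 11821145 to 17675948 counts. Motor neuron markers were present throughout, with Chat, the acetylcholine-synthesising enzyme, at 19.6 to 34.6 CPM (counts scaled to a common library total) and all 18 motor neuron markers above 0 in every library. Transcripts of other cells were abundant too. Summed over 12 oligodendrocyte and myelin markers the level was 38761 to 109816 CPM, against 584 to 1859 CPM for the 18 motor neuron markers. The motor neuron sum was 1402 to 1859 CPM in sham, 584 to 895 in untrained and 756 to 1337 in SBES libraries, and in such samples fewer cells of a type and less RNA per cell cannot be told apart. Calca and Spp1 made up much of that sum. Without them the sum of the other 16 markers overlapped between groups, at 307 to 709 CPM in sham, 211 to 462 in untrained and 346 to 486 in SBES. Of these 16, Uts2b, Chodl and Mmp9 were each lower in every injured library than in every sham library, and the rest overlapped. The 3 libraries numbered 1 stood apart in Malat1, a nuclear RNA, with 20834 CPM in sham 1, 15296 in untrained 1 and 6288 in SBES 1 against 466 to 1489 CPM in the others. SBES 1 also had 18.6% of its counts in mitochondrially encoded genes, against 2.47% to 7.36% elsewhere. Values of the 10 genes that rest on these libraries are given with and without them. The columns of the 3 untrained libraries and of SBES 1 carry no name from the labels and were assigned by elimination.

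Per length of transcript, on the deposited FPKM scale, the members covered a wide range of levels. Gap43 averaged 138 FPKM over the 9 libraries, Gal 85.96, Sprr1a 45.3, Basp1 25.0, Ecel1 12.6, Klf6 7.21, Smad1 3.40, Klf7 3.35, Atf3 3.10 and Sox11 0.23. Gap43 lay above Gal, Ecel1 above Klf6, Klf6 above Smad1 and Atf3 above Sox11 in 9 of 9 libraries. The order was not fixed between Gal and Sprr1a, Sprr1a and Basp1, or Basp1 and Ecel1, where the first exceeded the second in 6 of 9 libraries. Smad1 exceeded Klf7 in 4 libraries and Klf7 exceeded Atf3 in 5, so the levels of these 3 genes were not distinguishable. Sox11 had only 18 to 46 counts in a library.

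No member passed edgeR in any comparison at an adjusted p under 0.05. For untrained against sham 1 member had an unadjusted p under 0.05, for SBES against untrained 0, for SBES against sham 3, and for the 6 injured libraries against sham 2. Of all 15893 genes tested, 707, 854, 1480 and 1190 had such a p in the same order. DESeq2 called 0, 0, 1 and 1 members, and its counts over all genes are given further below. Over all 15893 genes tested, edgeR called 0 genes (0%) when untrained was set against sham, 0 (0%) when SBES was set against untrained, 55 (0.346%) for SBES against sham and 15 (0.0944%) for all injured against sham. The 55 became 132 with the replicate number as a block, and 29, 6 and 0 without sham 1, sham 2 and sham 3, 4 without SBES 3 and 86 without SBES 1. The 15 became 51 with the block and fell to 0 without sham 2 or sham 3, 3 without sham 1, 7, 4 and 6 without SBES 1, 2 and 3, and 9 without untrained 3. In the comparisons with no edgeR call DESeq2 called 14 and 29 genes. The comparisons share libraries with each other and are not independent.

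The members' differences leaned upward. The median log2 fold change of the 10 was 0.42 in untrained against sham, with 8 positive, 0.25 in SBES against untrained, with 7 positive, and 0.85 in SBES against sham, with 10 positive. The median over all genes tested was -0.0068, 0.015 and -0.0018, and 49.1%, 51.7% and 49.8% of them were positive. Some positive values of members were near 0, such as Klf7 at 0.014 and Sox11 at 0.043 in SBES against sham. The members were measured in the same libraries and some moved together, so their directions are not independent. Without the 3 libraries numbered 1, a choice made after seeing the data, 7, 6 and 8 of the 10 were positive. The groups' libraries did not overlap and the second group was higher for 1 member in untrained against sham, where this held for 4.63% of all genes. The counts were 0 members in SBES against untrained (5.66% of all genes), 3 in SBES against sham (7.1%) and 1 in all injured against sham (1.77%). These 3 members were Ecel1, Klf6 and Gal, and Ecel1 was also the 1 member in both other counts.

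**Figure D1:**
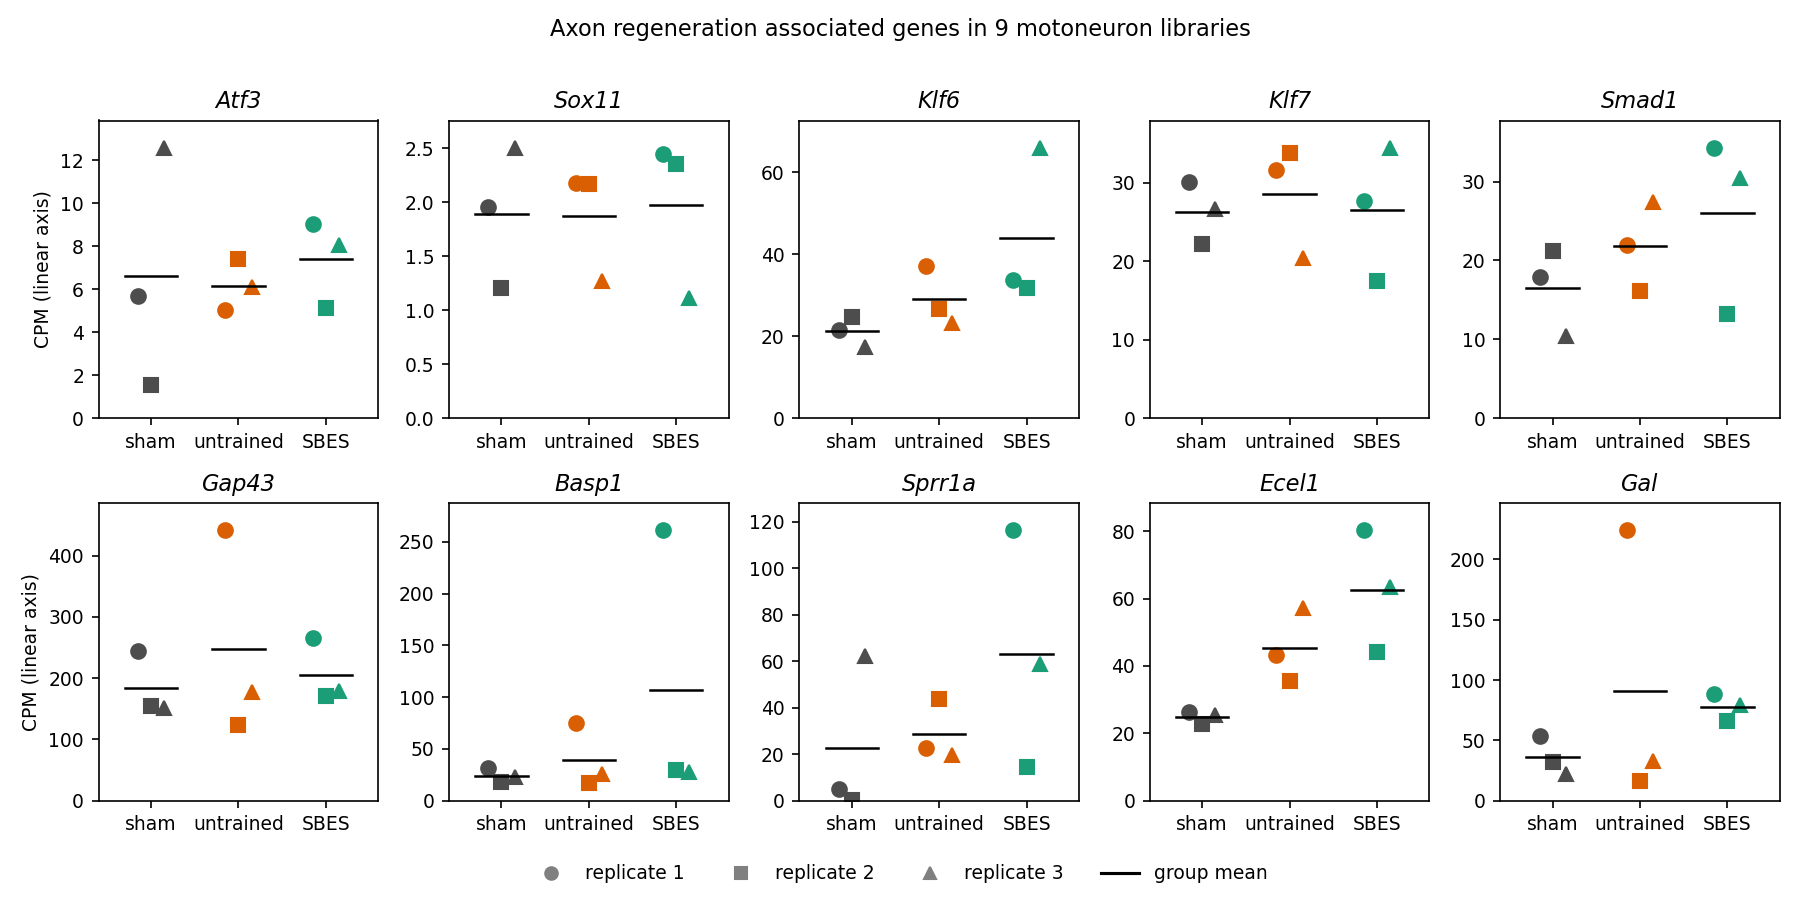
CPM of the 10 genes (linear axis from 0) in each library, by group, with the symbol shape giving the replicate number and the bar the mean of 3 libraries. Ecel1 lies at 22.7 to 26.3 CPM in sham and at 35.5 CPM or more in every injured library, while Sprr1a spans 0.444 to 116 CPM and Gal, Gap43 and Basp1 have single high libraries.

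**Figure D2:**
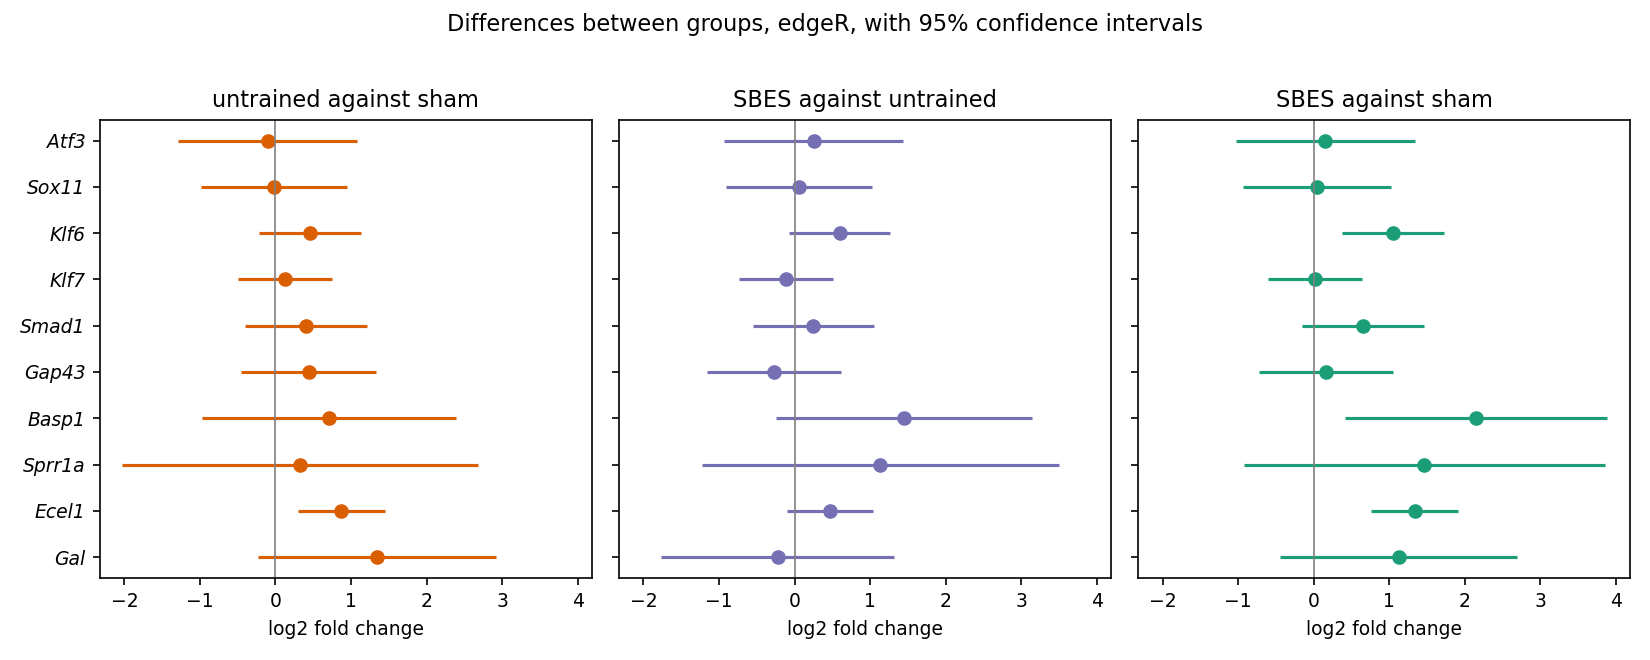
Log2 fold changes of the 10 genes in 3 comparisons (points) with 95% confidence intervals from the edgeR fit (lines). The intervals are not adjusted for the number of genes; that of Ecel1 lies above 0 in untrained against sham, those of Ecel1, Klf6 and Basp1 in SBES against sham, and the intervals of Sprr1a, Basp1 and Gal are the widest.

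Ecel1 encodes a membrane protein of the endothelin-converting enzyme family, known as an injury-induced neuronal peptidase. Coordinates are given on mm10, where the gene spans chromosome 1 from 87147655 to 87156521, minus strand. It stood at 26.3, 22.7 and 25.3 CPM in sham 1 to 3, at 43.2, 35.5 and 57.3 CPM in the untrained libraries, and at 80.3, 44.2 and 63.5 CPM in the SBES libraries. Every injured library lay above every sham library, and the untrained and SBES ranges overlapped. The sham mean was 24.8 ± 1.87 CPM (SD, n = 3), the untrained mean 45.3 ± 11.1 and the SBES mean 62.7 ± 18.1. Sham libraries were thus much closer to each other than the injured ones were.

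The log2 fold change of Ecel1 was 1.34 (SE 0.27) in SBES against sham, with an edgeR adjusted p of 0.0622, rank 68 by p among all genes tested. It was 0.87 (SE 0.26; adjusted p = 1) in untrained against sham and 1.11 (SE 0.24; adjusted p = 0.149) in all injured against sham. SBES against untrained gave 0.47 (SE 0.26; adjusted p = 0.973), with a 95% interval from -0.10 to 1.03. So the edgeR fit did not call Ecel1, but several alternatives did. Limma called none of the members it tested, Ecel1 included, in any comparison. In SBES against sham DESeq2 gave an adjusted p of 0.00068, the fit with the replicate number as a block 0.0193, and the fit without the 3 libraries numbered 1 an adjusted p of 0.0294 at a log2 fold change of 1.17. In all injured against sham these adjusted p were 0.00269, 0.0429 and 0.0383. All of these fits also called more genes over the whole table in both comparisons, with counts given further below. Leaving out single libraries kept the SBES against sham value between 1.15 and 1.54, with edgeR adjusted p from 0.0462, without SBES 2, to 0.302, without sham 3.

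Endothelial and pericyte markers, which are not neuronal, summed over 10 genes to 284 to 435 CPM in sham, 478 to 687 in untrained and 455 to 831 in SBES. Slc2a1, a glucose transporter, made this separation of the sums, with 101 to 145 CPM in sham and 227 to 510 CPM in injured libraries. Without Slc2a1 the sums overlapped, at 164 to 290 CPM in sham, 251 to 453 in untrained and 173 to 321 in SBES. Flt1, an endothelial marker of the same list, was also higher in every injured library than in every sham library. It stood at 8.56 to 17.6 CPM in sham and 21.1 to 29.4 CPM in injured libraries, and the remaining markers overlapped. All 10 were above 0 in every library, and their part in the Ecel1 difference was not tested. The relatives of Ecel1 with the same kind of protease domain did not follow it. Ece1, the endothelin-converting enzyme, had a log2 fold change of 0.31 (SE 0.30) in SBES against sham and Ece2 one of -0.13 (SE 0.47). None of the 4 genes of that list, with Mme and Mmel1, was called in any comparison or was free of overlap between groups.

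Atf3, a stress-induced transcription factor and a standard marker of axotomised neurons, showed no shift with injury. The gene spans chromosome 1 from 191170296 to 191218039, minus strand. Its levels were 5.67, 1.52 and 12.6 CPM in sham 1 to 3, 5.02, 7.40 and 6.09 CPM in untrained, and 9.02, 5.13 and 8.04 CPM in SBES. The highest and the lowest of the 9 libraries were both sham, so the sham range enclosed both injured groups. The log2 fold change was -0.10 (SE 0.54) in untrained against sham, with a 95% interval from -1.28 to 1.08, and 0.15 (SE 0.55) in SBES against sham. These intervals do not exclude a doubling or a halving. Without sham 3 the values were 0.82 and 1.08, and without sham 2 they were -0.58 and -0.32, so the sign of both rests on single sham libraries.

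Sprr1a, a small proline-rich protein of the skin's cornified envelope that is also known from regrowing sensory axons, was the most variable member. Its gene model spans chromosome 3 from 92483952 to 92485895, minus strand. Levels were 5.12, 0.444 and 62.4 CPM in sham 1 to 3, 22.5, 43.7 and 19.7 CPM in untrained, and 116, 14.5 and 58.6 CPM in SBES. Raw counts were 47, 7 and 1144 in the sham libraries, a 140.4-fold span in CPM from sham 2 to sham 3. The injured libraries all lay above sham 1 and sham 2, while sham 3 exceeded all of them but SBES 1.

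The within-group SD of Sprr1a on the log2(CPM + 1) scale was 1.84, above that of 99.9% of the genes tested, and the log2 fold changes had correspondingly wide errors. They were 0.32 (SE 1.08; adjusted p = 1) in untrained against sham, 1.14 (SE 1.09; adjusted p = 0.996) in SBES against untrained and 1.46 (SE 1.098; adjusted p = 0.762) in SBES against sham. Without sham 3 the first became 3.46 and the third 4.59, and without sham 2 the first was -0.25. Without SBES 1 the second became 0.36 and the third 0.70. The motor neuron marker sums of these extreme sham libraries were much closer, at 1429 CPM in sham 2 and 1859 in sham 3. Prph, the peripherin gene, stood at 211 and 232 CPM there and Chat at 34.6 and 34.5. Other markers of that list differed more, with Calca at 276 and 546 CPM and Mnx1 at 4.63 and 2.51. The part of cell content in the Sprr1a values was not tested. The related gene Sprr1b had 10 counts over the 9 libraries, and sharing of reads between them was not tested.

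Sprr1a and Atf3 moved together across libraries more closely, by Pearson's r, than any other pair of members. Pearson's r of log2(CPM + 1) was 0.903 and Spearman's rho 0.867 over the 9 libraries, which fall into 3 groups and differ in depth, and is given as a description without a test. Both genes were lowest in sham 2, and sham 3 ranked first for Atf3 and second for Sprr1a. SBES 1 and SBES 3 were high for both. Among other genes the patterns most like that of Sprr1a belonged to Bcr (r = 0.932, n = 9), Tmem259 (0.921) and Farp1 (0.869), the highest of 9541 genes searched. For Atf3, Bcr had an r of 0.873 and Tubb6 one of 0.81.

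The upstream sequence of Sprr1a is shown because this gene had the largest span and moved with a member of the ATF and AP-1 class. Its 236 bases before the deposited gene model lie on GRCm38.p6, the assembly called mm10, at chr3:92485896-92486131 on the minus strand, and are from RefSeq. Capitals mark matches to the AP-1 motif TGANTCA, searched on both strands. The matches begin 146 and 116 bases before the RefSeq start and both read TGAGTCA.
Sprr1a: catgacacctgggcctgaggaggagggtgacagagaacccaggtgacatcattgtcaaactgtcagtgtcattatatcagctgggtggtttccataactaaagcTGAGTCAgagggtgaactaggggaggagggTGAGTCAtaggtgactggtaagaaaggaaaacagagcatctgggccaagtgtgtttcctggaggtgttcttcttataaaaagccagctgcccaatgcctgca
Within 250 bases upstream, 6.75% of 32851 RefSeq promoters held TGANTCA and 1.55% held the cAMP response element TGACGTCA, which does not contain the first motif. Of the 9 members with an entry, Sprr1a alone held the former and none held the latter. A match describes the letters and is no evidence of binding.

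**Figure D3:**
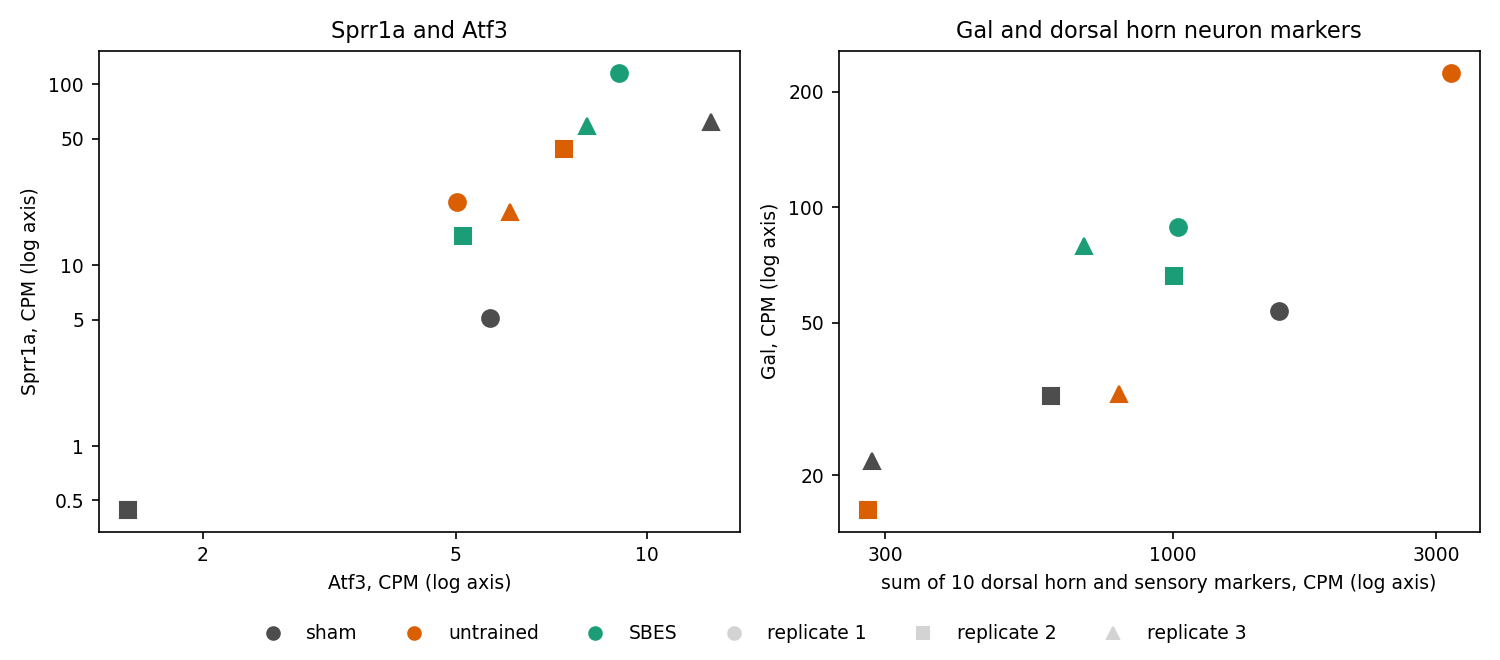
Left, Sprr1a against Atf3 in CPM (log axes) for the 9 libraries. Right, Gal in CPM against the summed CPM of 10 dorsal horn and sensory neuron markers (log axes). Sham 2 is lowest in both genes on the left, and untrained 1 is highest on both axes on the right.

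Gal, the precursor of the neuropeptide galanin, is strongly induced in axotomised motor and sensory neurons and is also made by interneurons of the dorsal horn. Gal spans chromosome 19 from 3409915 to 3414544, minus strand. It stood at 53.6, 32.2 and 21.8 CPM in sham 1 to 3, at 224, 16.3 and 32.6 CPM in untrained, and at 88.7, 66.2 and 79.2 CPM in SBES. The 3 SBES libraries lay above all sham libraries, with a mean of 78.0 ± 11.3 CPM (SD, n = 3) against 35.9 ± 16.2. The untrained group held both the highest and the lowest of the 9 libraries.

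In edgeR, Gal had a log2 fold change of 1.13 (SE 0.72; adjusted p = 0.701) in SBES against sham, 1.35 (SE 0.72; adjusted p = 1) in untrained against sham and -0.22 (SE 0.71; adjusted p = 0.999) in SBES against untrained. Untrained 1 decided the last 2 values: without it they were -0.51 and 1.65. Without the 3 libraries numbered 1, SBES against sham gave 1.44 (SE 0.31) with an edgeR adjusted p of 0.0234, and SBES against untrained 1.56.

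Markers of dorsal horn and primary sensory neurons were measured beside Gal. The sum over 10 of them was 1557, 601 and 283 CPM in sham 1 to 3, 3190, 279 and 798 CPM in untrained 1 to 3, and 1022, 1005 and 688 CPM in SBES 1 to 3. Untrained 1 was highest and untrained 2 lowest in both Gal and this sum. Pearson's r between the log2 values was 0.889 over the 9 libraries, which differ in depth and fall into 3 groups. Of the defining markers of primary sensory neurons, Scn10a and Mrgprd were at 0 in every library and Trpv1 at 0.218 CPM at most. The dorsal horn peptide genes Penk and Sst reached 1647 and 1045 CPM in untrained 1. Genes most like Gal in pattern were Kcnk2 (r = 0.979), Pnoc, the nociceptin precursor (0.97), and Nr2f1 (0.943). The part of dorsal horn transcripts in the Gal values was not tested. The SBES sums lay within the range of all 3 sham libraries, and without the libraries numbered 1 both SBES sums lay above both sham sums.

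The galanin receptor genes were at low levels. Galr1 stood at 0.164 to 1.198 CPM in sham, 0.111 to 2.12 in untrained and 0.309 to 1.78 in SBES, again with its highest value in untrained 1. Galr2 did not pass the filter, with 0.557 CPM at most. Galr3, named after its values were seen, stood at 0.273 to 0.635 CPM in sham, 0.167 to 0.664 in untrained and 0.891 to 1.59 in SBES, with a log2 fold change of 1.47 (SE 0.62; edgeR adjusted p = 0.49) in SBES against sham. Of the 9 tested genes of the list of galanin receptors and neuropeptides, 5 were positive in SBES against sham, 0 rose and 1 fell, where 0.346% of all genes were called. The gene that fell was Calca. Calca gives rise to CGRP, a peptide that motor neurons make, and is also among the 18 motor neuron markers. Calca went from 345 ± 177 CPM in sham to 59.3 ± 21.5 in SBES (n = 3 each; log2 fold change -2.54, SE 0.41, edgeR adjusted p = 0.0287). The call held in 3 of the 6 fits that left out a library, and was lost without sham 2 (adjusted p = 0.0731), sham 3 (0.166) or SBES 3 (0.124), and with limma (0.0523).

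Gap43, a growth cone membrane protein and the most abundant member, showed no separation of the groups. It spans chromosome 16 from 42248442 to 42340651, minus strand. Levels were 244, 154 and 152 CPM in sham 1 to 3, 442, 124 and 178 CPM in untrained, and 265, 171 and 179.7 CPM in SBES. Untrained 1 was highest by far, and without it the range over the other 8 libraries was 124 to 265 CPM. The log2 fold change was 0.44 (SE 0.41; adjusted p = 1) in untrained against sham and turned to -0.24 without untrained 1. In SBES against sham it was 0.16 (SE 0.41), with a 95% interval from -0.72 to 1.05. Gap43 followed Gal over the libraries (r = 0.894) and also the dorsal horn marker sum (r = 0.908, n = 9), whose part was not tested.

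Basp1 encodes a brain acid-soluble membrane protein that works beside GAP-43 in growth cones and nerve endings. Basp1 spans chromosome 15 from 25363277 to 25413764, minus strand. It stood at 31.4, 17.6 and 22.7 CPM in sham 1 to 3, at 74.96, 16.6 and 25.3 CPM in untrained, and at 261, 29.9 and 28.1 CPM in SBES. In each group the library numbered 1 was the highest, and SBES 1 alone stood 8.74-fold above SBES 2. The log2 fold change in SBES against sham was 2.15 (SE 0.80; edgeR adjusted p = 0.392), the largest of the 10 in that comparison, and it was 0.31 without SBES 1. In SBES against untrained it was 1.45 and turned to -0.42 without that library. With the replicate number as a block the SBES against sham value was 1.38 (SE 0.42; adjusted p = 0.19). The genes most like Basp1 in pattern, Cabp1 (r = 0.966), Kcmf1 (0.955) and Atp11a (0.954), also had their highest value in SBES 1.

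The list of other growth cone and outgrowth proteins leaned the other way. Of its 18 genes, 14 were negative in untrained against sham (median -0.31) and 13 in SBES against sham (median -0.20), and none was called. Tuba1a, an alpha-tubulin of growing neurons, averaged 2745 ± 376 CPM in sham, 1506 ± 422 in untrained and 1544 ± 784 in SBES (n = 3 each). Its log2 fold change in SBES against sham was -0.83 (SE 0.37; adjusted p = 0.518). Without the 3 libraries numbered 1 Tuba1a was called, at -1.19 and an edgeR adjusted p of 0.0343. Dpysl3, a collapsin response mediator, averaged 109.9 ± 3.87, 80.3 ± 16.6 and 81.1 ± 12.7 CPM, and its value in SBES against sham was -0.44 (SE 0.22; adjusted p = 0.576). Stmn2, a microtubule regulator of growth cones, stood at 726 to 1057 CPM in sham, 545 to 614 in untrained and 530 to 1267 in SBES. Marcks, a membrane protein of the same functional class as GAP-43, stood at 10.9 to 18.8, 9.11 to 16.8 and 11.4 to 14.3 CPM. The summed pan-neuronal markers were lower in all untrained libraries as well, at 7804 to 8311 CPM against 10246 to 14879 in sham. In SBES 1 to 3 that sum was 14576, 7439 and 9252 CPM. Stmn2 and Tubb3 belong to both lists, so the lists are not separate measures. The part of pan-neuronal transcripts in these differences was not tested.

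Klf6, a zinc finger transcription factor that promotes axon growth, was higher in every SBES library than in every sham library. Klf6 spans chromosome 13 from 5861482 to 5870394, plus strand. Levels were 21.6, 24.7 and 17.3 CPM in sham 1 to 3, 37.1, 26.6 and 23.2 CPM in untrained, and 33.6, 31.8 and 66.0 CPM in SBES. The untrained libraries lay between and overlapped both groups. The log2 fold change was 1.05 (SE 0.31) in SBES against sham with an edgeR adjusted p of 0.227, 0.45 (SE 0.31; adjusted p = 1) in untrained against sham and 0.60 (SE 0.31; adjusted p = 0.954) in SBES against untrained. Without SBES 3, the highest library, SBES against sham gave 0.63 and SBES against untrained 0.18.

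SBES 3 also had the highest sum over 12 microglia and macrophage markers, at 3421 CPM against 739 to 2176 CPM in the other 8 libraries. The complement genes C1qa, C1qb and C1qc led that sum, while Aif1, Cx3cr1 and P2ry12 were not highest there. The endothelial and pericyte sum was highest in SBES 3 too, at 831 CPM, but without Slc2a1 it was 321 CPM there and highest in untrained 2, at 453 CPM. KLF6 is made by glial and vascular cells too, and their part in the Klf6 value was not tested. The genes most like Klf6 in pattern were the immediate early gene Dusp1 (r = 0.952), Hmgb2 (0.928) and Pglyrp1 (0.923).

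Klf7, the closest relative of Klf6 in sequence and in growth promotion, showed no difference beyond its spread. It spans chromosome 1 from 64029447 to 64122282, minus strand, and stood at 30.2, 22.2 and 26.7 CPM in sham 1 to 3, at 31.6, 33.8 and 20.4 CPM in untrained, and at 27.6, 17.5 and 34.5 CPM in SBES. The 3 groups overlapped fully, with means of 26.3 ± 4.02, 28.6 ± 7.21 and 26.6 ± 8.53 CPM (SD, n = 3 each). The 95% interval of the log2 fold change was -0.61 to 0.64 in SBES against sham and -0.50 to 0.74 in untrained against sham.

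The KLF family as a whole holds promoters and brakes of axon growth. Of 12 further members 11 were tested, and 3 rose in SBES against sham by edgeR, where 0.346% of all genes were called. These were Klf9, Klf13 and Klf15, of which Klf9 is known as a brake on axon growth. Klf9 stood at 40.1, 43.1 and 45.96 CPM in sham 1 to 3, at 54.5, 76.4 and 66.1 CPM in untrained, and at 127, 84.3 and 135 CPM in SBES (log2 fold change 1.42, SE 0.24, adjusted p = 0.0339). The 3 groups did not overlap, with sham lowest and SBES highest.

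Klf13 averaged 38.3 ± 9.17 CPM in sham, 69.9 ± 19.1 in untrained and 108 ± 21.7 in SBES libraries (n = 3 each; log2 fold change 1.495, SE 0.27, edgeR adjusted p = 0.0442 in SBES against sham). Klf15 averaged 26.1 ± 7.76, 47.5 ± 12.5 and 89.9 ± 30.3 CPM in the same order (log2 fold change 1.78, SE 0.31, edgeR adjusted p = 0.0386). Their directions held when single libraries were left out, but their calls did not. Leaving out sham 1, sham 2, sham 3 or SBES 3 ended each call, as did leaving out SBES 2 for Klf13 and Klf15. The highest edgeR adjusted p, 0.186 for Klf9, 0.271 for Klf13 and 0.23 for Klf15, came without sham 3. Limma also called none of these, with adjusted p of 0.162, 0.148 and 0.162, and with only the groups compared Klf15 had 0.0503. Klf4, another brake, was near the floor at 0.254 to 1.06 CPM in all libraries.

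**Figure D4:**
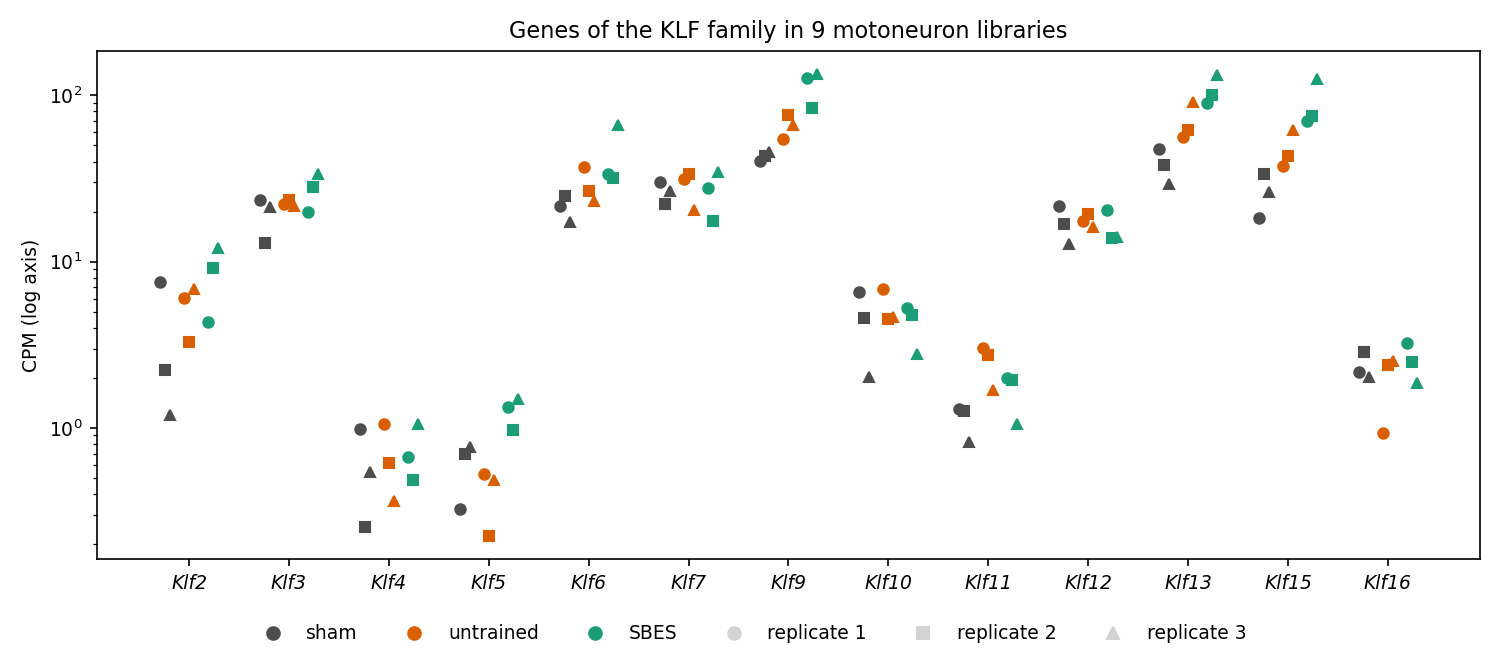
CPM (log axis) of the 13 tested KLF genes in the 9 libraries, coloured by group, with the symbol shape giving the replicate number. Klf9 and Klf15 separate all 3 groups, Klf5 (1.48 CPM at most), Klf6 and Klf13 separate SBES from sham, and Klf7 does not separate them. SBES lay above sham without overlap for 7.1% of all genes.

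Smad1 transduces bone morphogenetic protein (BMP) signals and is known to support the growth state of sensory neurons. Smad1 spans chromosome 8 from 79338395 to 79399518, minus strand. It stood at 17.9, 21.3 and 10.4 CPM in sham 1 to 3, at 21.9, 16.1 and 27.4 CPM in untrained, and at 34.3, 13.2 and 30.5 CPM in SBES. The groups overlapped, and SBES 2 was the second lowest library after sham 3. The log2 fold change was 0.66 (SE 0.37; edgeR adjusted p = 0.656) in SBES against sham and 0.41 (SE 0.37; adjusted p = 1) in untrained against sham. Without sham 3, the lowest library, these became 0.41 and 0.16. Without SBES 1, the highest library, SBES against sham gave 0.44. SBES against untrained went from 0.25 to 0.0055 without that library.

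Among 16 tested genes of BMP and SMAD signalling none was called. Id1, a direct target of SMAD1 that endothelial cells also express strongly, stood at 42.2, 32.6 and 30.8 CPM in sham 1 to 3, at 53.4, 88.8 and 52.7 CPM in untrained, and at 45.2, 68.4 and 144 CPM in SBES. All injured libraries lay above all sham libraries, and the log2 fold change in SBES against sham was 1.29 (SE 0.38; adjusted p = 0.224; 0.70 without SBES 3). Without the 3 libraries numbered 1 the edgeR adjusted p of Id1 was 0.0134. Smad4, the common partner, stood at 2.92 to 5.18 CPM in sham, 4.10 to 6.29 in untrained and 3.96 to 10.1 in SBES. The receptor gene Bmpr2 stood at 9.84 to 11.6, 7.73 to 19.8 and 7.73 to 20.5 CPM. The endothelial marker sums, with and without Slc2a1, and the levels of Flt1 are those given for Ecel1, and their part in the Id1 values was not tested.

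Sox11, a developmental transcription factor that returns in regenerating sensory neurons, was close to the limit of detection. Sox11 spans chromosome 12 from 27334264 to 27342574, minus strand. Levels were 1.96, 1.21 and 2.51 CPM in sham 1 to 3, 2.18, 2.17 and 1.27 CPM in untrained, and 2.45, 2.36 and 1.11 CPM in SBES. The groups overlapped fully, and the log2 fold change was -0.017 (SE 0.44) in untrained against sham and 0.043 (SE 0.45) in SBES against sham. The 95% interval of the latter, -0.94 to 1.02, does not exclude a change of about 2-fold at this depth. Sox4, its relative of the same class, stood at 59.5 CPM in SBES 3 and at 4.52 to 9.58 CPM in the other 8 libraries. Its log2 fold change in SBES against sham was 2.01 (SE 0.73; adjusted p = 0.371), and 0.20 without SBES 3.

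Among the partners of ATF3 and the other early transcription factors the filtered edgeR fit over all 9 libraries, with group as its only term, made no call. Of 14 ATF and AP-1 genes, 10 were positive in SBES against sham (median 0.32) and 0 were called. Jun, the AP-1 subunit that works with ATF3 after axotomy, averaged 48.2 ± 2.66 CPM in sham, 51.3 ± 14.0 in untrained and 67.5 ± 23.1 in SBES (n = 3 each). Fosl2 reached 1.39 to 2.597 CPM in SBES against 0.109 to 0.709 in sham (log2 fold change 2.39, SE 0.68, adjusted p = 0.206). Junb had 1.15 (SE 0.36; edgeR adjusted p = 0.256, 0.0283 without SBES 1 and 0.005 without the 3 libraries numbered 1). In the list of STAT3, C/EBP and MYC factors 4 of 7 genes lay higher in every SBES than in every sham library, as did 7.1% of all genes. Stat3, which carries injury signals of the interleukin 6 family, stood at 37.0 to 42.9 CPM in sham, 34.6 to 49.9 in untrained and 55.4 to 89.2 in SBES (0.73, SE 0.24, adjusted p = 0.31). The largest difference in that list was Cebpd at 3.12 (SE 0.61; adjusted p = 0.0593), which was 1.91 without SBES 3. Its edgeR adjusted p was 0.0318 without SBES 1, 0.038 without SBES 2 and 0.0111 without the 3 libraries numbered 1. With the replicate block Cebpd (0.0319) and Cebpb (0.0461) were called, and DESeq2 called both (3.16e-06 and 0.00325). When low counts were not filtered out, edgeR called Cebpd, Cebpb, Junb and Fosl2 in SBES against sham, but not Jun or Stat3. Calls of that unfiltered fit can rest on a single library. Sox4, high in SBES 3 alone, had an edgeR adjusted p of 3.1e-07 there (SE 0.33), against 0.371 in the filtered fit (SE 0.73).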

How the data were processed

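Counts and FPKM of 9 libraries were taken from 1 table that the authors deposited. Per the labels' protocols, clean paired-end reads were aligned with Hisat2 2.0.1 and counted with HTSeq 0.6.1, and the labels also name DESeq2. The submitters' processing notes give mm10 as build. No source used here gives the annotation release or strand setting, so overlapping genes could share reads. The deposited FPKM equal counts scaled by exonic length and library total (100% of values within 0.006).

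Genes were filtered with filterByExpr, scaled by TMM and tested with edgeR 4.0.16 (quasi-likelihood, 1 fit over 9 libraries, a coefficient per group, Benjamini-Hochberg over 15893 genes, threshold 0.05) in R 4.3.3. DESeq2 1.42.0 and limma 3.58.1 served as alternatives, limma on log2(FPKM + 1). CPM use TMM-adjusted totals, and correlations log2(CPM + 1). PCR copies are not independent molecules, so depth overstates precision. On simulated counts with 15893 genes, edgeR recovered, for 4-fold and 2-fold changes, 72% and 7% (untrained against sham), 65% and 7% (SBES against untrained), 68% and 11% (SBES against sham) and 77% and 21% (all injured against sham). False calls made up 1.25%, 6.49%, 9.2% and 4.85% of its calls there, in the same order, at the threshold of 0.05.

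Deviations of same-numbered libraries from their group means correlated at 0.186 to 0.33 in all 3 pairs of SBES and sham, which meets the rule for pairing (each over 0.1). The replicate 2 pair stood at -0.171 for untrained and SBES and at 0.0159 for sham and untrained. Some differently numbered pairs reached similar values, such as 0.211 for sham 2 with SBES 3 and 0.341 for sham 2 with untrained 3. Others were negative, down to -0.421 for sham 1 with untrained 3. So these values cannot show that same-numbered libraries were paired. The block is given only as an alternative, where it changes a call or a sign or moves a count or value by over 1.5 times. Some of these values belong to comparisons other than SBES against sham, which do not meet that rule in full.

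All 10 members are named. From 10 lists of related genes the text names called genes, up to 3 of the smallest p, and 13 genes fixed by name. The likeness search took genes with a mean of at least 5 CPM. One of its results for Atf3 is not reported here. Members and lists were chosen with earlier results of these data known.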

Additional observations from a re-analysis of the deposited data

How the results depend on the processing

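Each member's log2 fold change was recomputed with DESeq2, RLE size factors, other filters, limma, a replicate block and subsets of libraries. Of 338 such values 296 kept their direction and stayed uncalled, 20 became calls and 22 turned sign; with single libraries left out the numbers were 228, 1 and 41 of 270. Sign changes in untrained against sham were Sox11 at 0.033 with no filter and 0.0099 with only the groups compared, and Atf3 at 0.31 with limma and 0.20 with the replicate block. In SBES against untrained they were Smad1 at -0.032 and Gal at 0.42 with limma, and Gal at 0.52 with the replicate block. In SBES against sham they were Klf7 at -0.019 with limma and Sox11 at -0.023 with the replicate block, and Sox11 was at -0.0497 with the block in all injured against sham. Without the 3 libraries numbered 1, Gal was at -0.12 in untrained against sham; Atf3, Sox11, Smad1, Gap43 and Gal at -0.053, -0.021, -0.014, 0.19 and 1.56 in SBES against untrained; Atf3 and Sox11 at -0.10 and -0.11 in SBES against sham and at -0.074 and -0.099 in all injured against sham. With a term for those libraries, Gal was at 0.52 in SBES against untrained and Sox11 at -0.0077 in all injured against sham. The cause of these changes was not tested.

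Left-out libraries gave these ranges. In untrained against sham they were -0.58 to 0.82 for Atf3, -0.15 to 1.07 for Basp1, -0.51 to 1.84 for Gal, -0.24 to 0.76 for Gap43, -0.018 to 0.32 for Klf7, -0.27 to 0.27 for Sox11 and -0.25 to 3.46 for Sprr1a. In SBES against untrained they were -0.42 to 2.29 for Basp1, -0.72 to 1.65 for Gal, -0.59 to 0.41 for Gap43, -0.34 to 0.12 for Klf7 and -0.16 to 0.36 for Sox11. In SBES against sham they were -0.32 to 1.08 for Atf3, -0.037 to 0.44 for Gap43, -0.22 to 0.24 for Klf7 and -0.21 to 0.34 for Sox11. In all injured against sham they were -0.45 to 0.95 for Atf3, -0.034 to 0.58 for Gap43, -0.050 to 0.20 for Klf7 and -0.24 to 0.30 for Sox11.

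Counts of called genes over the whole table, in the order untrained against sham, SBES against untrained, SBES against sham and all injured against sham, were 0, 0, 55 and 15. They were 14, 29, 283 and 159 with DESeq2, 134, 186, 517 and 345 with no filter, and 47, 13, 581 and 335 without the libraries numbered 1. Limma called 1 gene in SBES against untrained, 19 in SBES against sham and 2 in all injured against sham. The replicate block gave 4, 132 and 51 in the comparisons with sham, and the term for the libraries numbered 1 gave 9, 186 and 77. With single libraries left out the counts ran from 0 to 1 in SBES against untrained, 0 to 86 in SBES against sham and 0 to 11 in all injured against sham; the lowest was reached without sham 3 in SBES against sham, and without sham 2 or sham 3 in all injured against sham. With no filter 5 of the 10 members were among the 517 genes called in SBES against sham. That fit kept every gene of the 55401 that had a count, and the share called among them is not given here. DESeq2 gave no adjusted p for Basp1. The replicate block changed no other call of a member than that of Ecel1.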

Other observations

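Other genes that injured neurons are known to induce were measured beside the members. Of 15 tested genes of that list 1 rose in SBES against sham by edgeR, where 0.346% of all genes were called. This was Cdkn1a, the cell cycle inhibitor p21. It stood at 55.7, 65.6 and 80.0 CPM in sham 1 to 3, at 82.2, 60.4 and 226 CPM in untrained, and at 436, 377 and 1517 CPM in SBES (log2 fold change 3.53, SE 0.61, edgeR adjusted p = 0.0366). The call was lost without sham 1, sham 2 or sham 3 (adjusted p of 0.0728, 0.179 and 0.186), and without SBES 3, where the log2 fold change was 2.597. Hspb1, a small heat shock protein of regrowing motoneurons, stood at 138 to 230 CPM in sham, 105 to 192 in untrained and 281 to 981 in SBES (log2 fold change 1.57, SE 0.43, edgeR adjusted p = 0.187 in SBES against sham; 0.86 without SBES 3; adjusted p = 0.0275 without the 3 libraries numbered 1). Plaur, the urokinase receptor, averaged, in the same order, 1.90 ± 0.902, 5.44 ± 2.16 and 7.73 ± 5.05 CPM (2.07, SE 0.52, edgeR adjusted p = 0.142, and 0.00433 without the 3 libraries numbered 1).

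Among 15 genes known as brakes on axon growth, 1 rose in SBES against sham and 0 fell, against 0.346% of all genes called. It was Klf9, already counted in the KLF family. Socs3, which limits STAT3 signalling, stood at 0.698 to 1.96 CPM in sham, 0.793 to 2.84 in untrained and 2.84 to 9.77 in SBES (log2 fold change 2.14, SE 0.62, edgeR adjusted p = 0.216; 1.32 without SBES 3; adjusted p = 0.0275 without the 3 libraries numbered 1). The median log2 fold change of the list was 0.25 in SBES against sham and 0.06 in untrained against sham, against -0.0018 and -0.0068 over all genes tested.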
